A study of Mus musculus with 150 samples.

Results

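Csmd1, Dlc1 and Sgcz are long protein-coding genes of mouse chromosome 8, and their replication timing was followed along the gene, on both alleles and in 6 clones of edited mouse embryonic stem cells. The genes were chosen by name, with annotated ends on GRCm38 (mm10), and are 3 of the 953 protein-coding genes of chromosome 8 that hold at least 1 measured position, out of 1043 annotated there. Csmd1 lies at chr8:15892538-17535385, Dlc1 at chr8:36567739-36953184 and Sgcz at chr8:37517840-38661705. With 1643 kb, 385 kb and 1144 kb they rank 1, 23 and 4 in length on the chromosome. They hold 329, 77 and 229 measured positions, 5 kb apart, and none of these is blank in any of the 12 columns. Dlc1 and Sgcz are neighbours with a gap of 565 kb, and Csmd1 lies on the far left of the chromosome.

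Replication timing is the order in which stretches of a chromosome are copied during S phase. Early-replicating stretches are mostly rich in genes and active chromatin, late-replicating ones are mostly gene-poor, and a transition region lies between them where the time of copying shifts gradually along the DNA. Very long genes that are silent in a cell type often lie in late-replicating domains. Csmd1 encodes a large transmembrane protein with CUB and Sushi domains that regulates complement and is found mainly in the nervous system. Dlc1, named for its deletion in liver cancer, encodes a GTPase-activating protein. Sgcz encodes zeta-sarcoglycan, a member of the sarcoglycan group of the dystrophin-associated complex at the muscle membrane.

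The cells were cas/129 hybrid mouse embryonic stem cells grown in 2i plus LIF, and each line was an individual clone made with CRISPR. RexTrim.del clones D3 and D8 carry deletions of chr8:43176771-43181949 and of chr8:43302260-43332339, Rex1.del clones D1 and E3 carry the second of these, and Trim.del clones D9 and E9 carry the first. Rex1 is the common name of the product of Zfp42, a transcription factor used as a marker of pluripotency. No unedited clone is among the chromosome 8 samples, so genotypes were compared with each other, and all 6 clones share an edited chromosome. Newly made DNA was labelled with BrdU, early and late S-phase cells were sorted, and both fractions of each clone were sequenced, which gives 12 of the series' 150 samples. Both alleles were scored apart in each clone, svim and cast. The labels do not say on which of them the deletions lie.

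The score is higher where replication is earlier. It is not a fold change, and its depth and log base are unknown, so the spread between clones sets the precision. Every column has the same interquartile range of 4.60, while column medians differ. The nearest deleted base lies 25.6 Mb from Csmd1, 6.22 Mb from Dlc1 and 4.52 Mb from Sgcz. All 6 positions in the deletion that Rex1.del and RexTrim.del share were blank on svim in those 4 clones and held values on cast. The 1 position inside the other deletion was blank on svim in all RexTrim.del and Trim.del clones, and also on cast in RexTrim.del D8. By these blanks svim carries a deletion in all 6 clones. Svim minus cast therefore also compares an edited chromosome with one that has no blank deletion outside D8. The part of the edit in the allele differences was not tested. Clones are taken as labelled, and the p-values measure the spread between them, since the labels do not say whether they were grown and sorted apart.

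Csmd1 and Sgcz replicated late in every clone on both alleles, and Dlc1 did not. Averaged over the gene and the 12 columns, the score was -2.93 for Csmd1, -2.27 for Sgcz and 1.38 for Dlc1. No position of Csmd1 or Sgcz scored above 0 in any column, against 94.2% of the position values of Dlc1 (between 74.0% and 100% by column). Dlc1 was therefore described as a gene on the early side of a transition rather than as a late gene. Of the genes with a score, 2.79% lay below Csmd1 on average over the columns, 5.74% below Sgcz and 26.8% below Dlc1.

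The alleles of a clone lay close together in Csmd1. In RexTrim.del, D3 scored -3.07 on svim and -3.12 on cast, and D8 -3.32 on svim and -3.36 on cast. In Rex1.del, D1 scored -2.45 on svim and -2.42 on cast, and E3 -2.75 on svim and -2.95 on cast. In Trim.del, D9 scored -2.86 on svim and -2.78 on cast, and E9 -3.12 on svim and -2.97 on cast. The least late values on each allele were those of D1, and the latest were those of D8.

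Dlc1 varied more than Csmd1 between the alleles of a clone. In RexTrim.del, D3 scored 1.48 on svim and 1.18 on cast, and D8 1.10 on svim and 1.41 on cast. In Rex1.del, D1 scored 1.05 on svim and 0.98 on cast, and E3 1.47 on svim and 1.30 on cast. In Trim.del, D9 scored 2.09 on svim and 1.61 on cast, and E9 1.57 on svim and 1.32 on cast. D9 was the earliest clone and D1 the latest on each allele.

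Sgcz had no clone order shared by the alleles. In RexTrim.del, D3 scored -2.14 on svim and -2.43 on cast, and D8 -2.28 on svim and -2.82 on cast. In Rex1.del, D1 scored -2.11 on svim and -1.88 on cast, and E3 -2.10 on svim and -2.45 on cast. In Trim.del, D9 scored -1.97 on svim and -2.21 on cast, and E9 -2.62 on svim and -2.24 on cast. The latest clone was E9 on svim and D8 on cast.

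**Figure D1:**
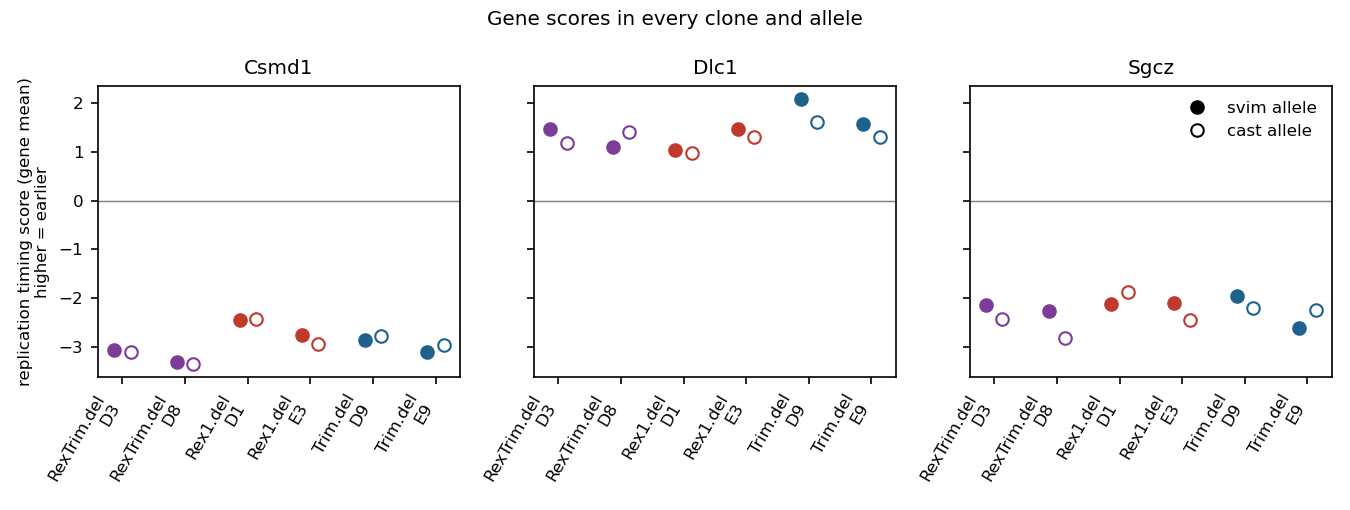
Replication timing score averaged over each gene (vertical axis, score units, higher is earlier) in the 6 clones (horizontal axis), with filled points for svim and open points for cast. Csmd1 and Sgcz lie between -3.36 and -1.88 in all 12 columns, and Dlc1 between 0.98 and 2.09.

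Late replication was common among long genes of the chromosome. Chromosome 8 has 29 other protein-coding genes of at least 300 kb, and their median mean score was -1.99, against 2.18 for all 953 genes. Of the 29, 20 (69.0%) scored below 0, against 14.6% of all genes. Among the 32 long genes, counted from the latest, Csmd1 ranked 7, Sgcz 13 and Dlc1 29. The latest of the others were Myo16, an unconventional myosin gene (-3.39), Fam155a (-3.17) and Unc5d, a netrin receptor gene (-3.09). The earliest were Gse1 (3.24), Cacna1a, a calcium channel gene (2.27), and Hydin, a gene of motile cilia (1.87). The longest gene of the chromosome was thus late but not the latest, and the ranges over columns of Csmd1 and of the genes next to it in that order overlapped.

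**Figure D2:**
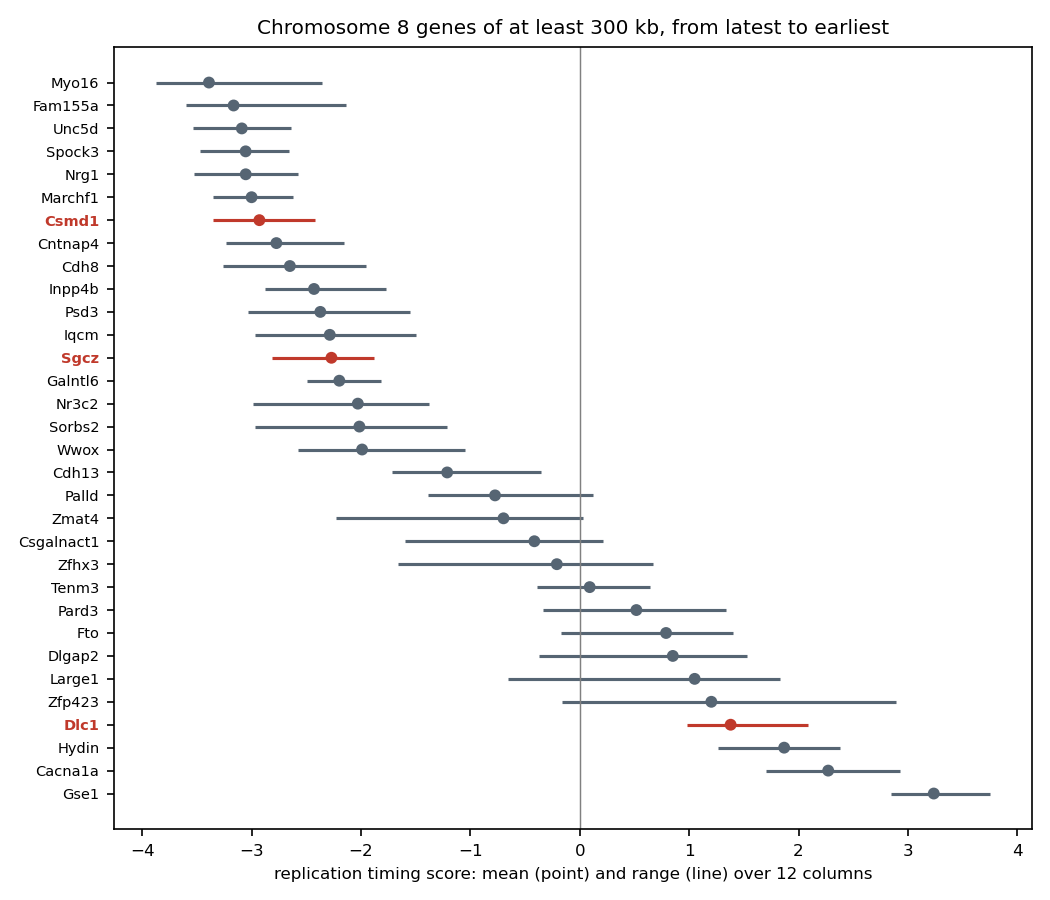
Mean score over the 12 columns (points) and range over them (lines), in score units, for the 32 chromosome 8 genes of at least 300 kb, from the latest at the top to the earliest at the bottom. Csmd1 and Sgcz, in red, stand in the late group at -2.93 and -2.27, and Dlc1, also in red, among the few above 0 at 1.38.

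Along Csmd1 the score declined from left to right, where left and right mean lower and higher coordinates. Each gene was divided into 10 sections of equal length, numbered from 1 at the left end. Section 1 of Csmd1 averaged -2.22 ± 0.53 and section 10 averaged -3.27 ± 0.41 (SD, n = 12 columns of 6 clones). Section 10 minus section 1 was -1.05 on average and lay between -2.43 and 0.007 by column. The fall was largest on svim in D9, and the value of 0.007 belongs to cast in E3. The alleles declined in different places. On svim sections 1, 4 and 10 averaged -1.86, -3.02 and -3.29, so most of the decline lay in the left part. On cast they averaged -2.59, -2.71 and -3.25, so most of it lay further right. Neighbouring positions differed by a median of 0.006 only, so a profile holds far fewer independent values than positions. Over the positions of Csmd1, the 66 pairs of columns had a median Pearson r of 0.63, between -0.14 and 0.94. These correlations are descriptions across neighbouring positions.

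**Figure D3:**
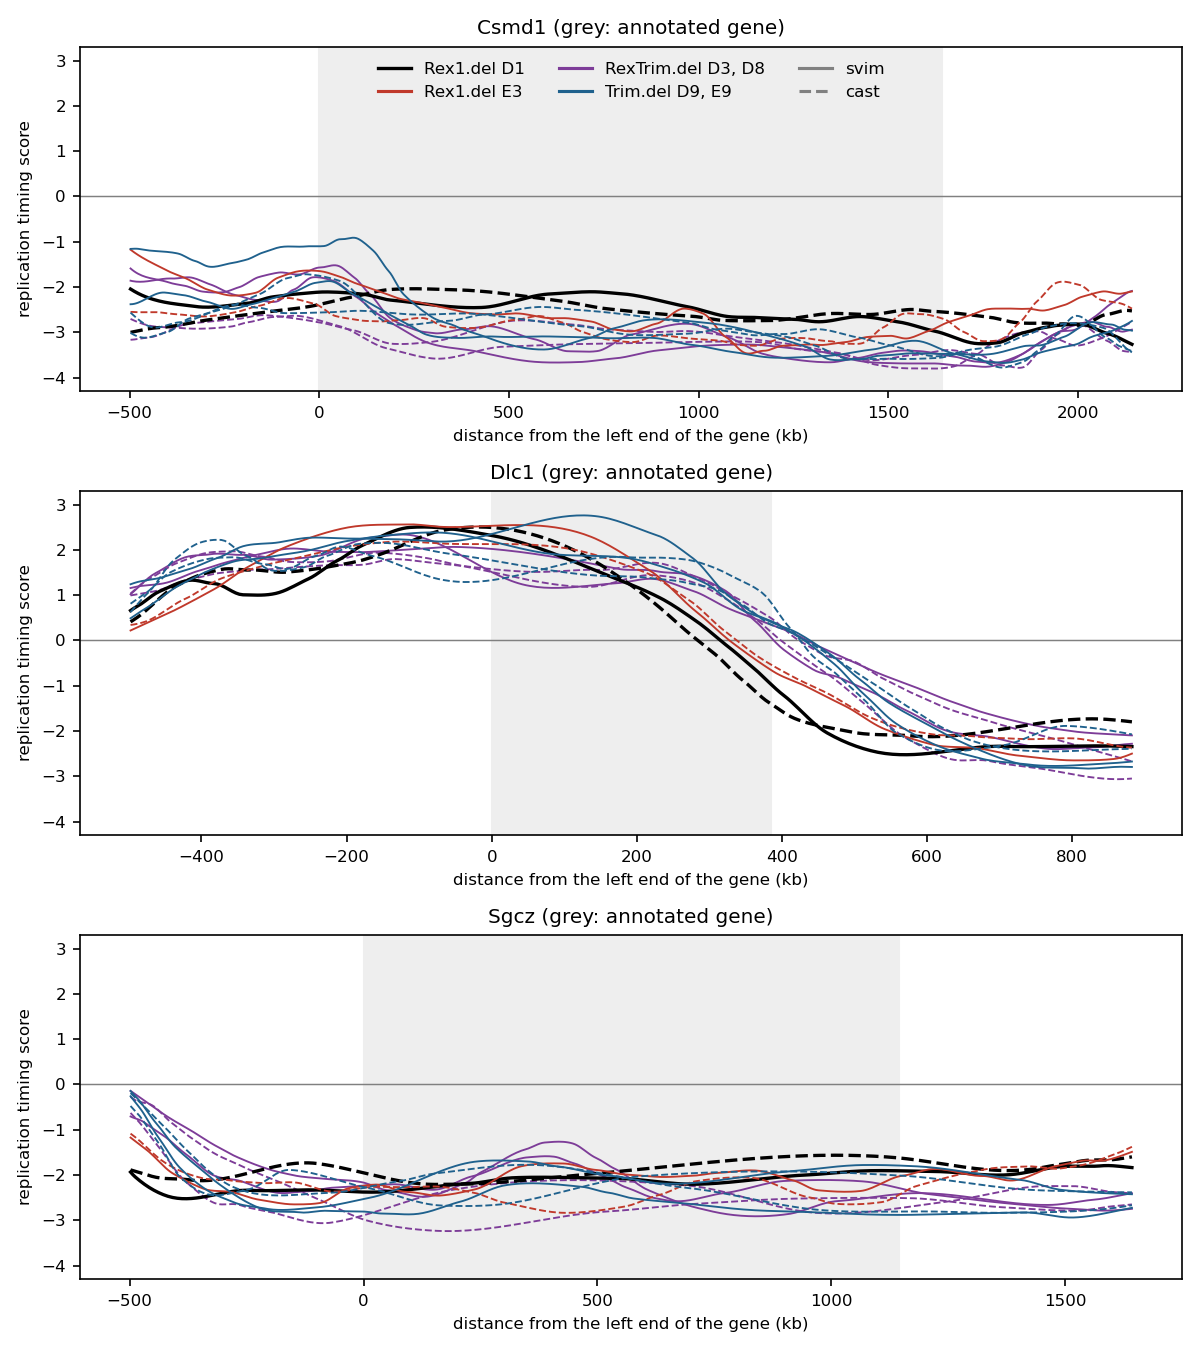
Replication timing score (vertical axis, score units) against the distance from the left end of each gene (horizontal axis, kb), with 500 kb on either side and the annotated gene in grey. Lines are clones, solid for svim and dashed for cast, with D1 in black. Csmd1 and Sgcz stay below 0 over the whole gene, and Dlc1 falls from left to right and meets 0 near its right end, further left in D1 and E3 than in the other 4 clones.

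The left end of Csmd1 replicated earlier on svim than on cast. Section 1 averaged -1.86 on svim and -2.59 on cast. On svim it scored -1.82 in D3, -2.15 in D8, -2.15 in D1, -1.87 in E3, -1.05 in D9 and -2.13 in E9. On cast it scored -2.96 in D3, -3.00 in D8, -2.23 in D1, -2.67 in E3, -2.12 in D9 and -2.54 in E9. Svim was earlier than cast in every clone, by the least in D1. Of the 33 windows of 50 kb in Csmd1, the 3 leftmost were called for the allele difference, all higher on svim (limma, Benjamini-Hochberg adjusted over 2521 windows). Over the chromosome 24.4% of windows were called, 13.6% higher on svim and 10.8% lower, so 3 of 33 is no more than the background, and the position of the calls is what is described here. The differences were 0.80 at chr8:15900001-15950000 (adjusted p 0.0017, higher in 6 of 6 clones), 0.75 in the next window (0.0048, 6 of 6) and 0.64 in the one after (0.020, 5 of 6). The exact sign-flip test over the 6 clones gave 0.03125 for the first 2 of these, the smallest p it allows, and 0.0625 for the last.

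These windows are the right end of a run of 28 called windows, chr8:14650001-16050000, which spans 1400 kb and reaches 157 kb into Csmd1. Differences in the run lay between 0.47 and 1.97, with adjusted p between 3.5e-05 and 0.031. The highest was in the window that starts at 15150001, left of the gene. Over the stretch of the run inside Csmd1, svim minus cast was 1.15 in D3, 0.85 in D8, 0.09 in D1, 0.81 in E3, 1.06 in D9 and 0.43 in E9. Leaving out D1 gave 200 kb of Csmd1 in called windows, leaving out each of the other clones 100 to 150 kb. Annotated genes of the left neighbourhood were also called with svim higher, by 1.66 for Myom2, a gene of a muscle M-band protein 759 kb left of Csmd1, by 1.37 for Arhgef10, by 1.29 for Kbtbd11 and by 1.21 for Cln8. Going left from Csmd1, the score as deposited was last above 0 between 628 and 808 kb from the gene on svim, and between 813 and 1538 kb on cast. The ranges of the alleles did not overlap but nearly met, at 808 kb in E9 on svim and 813 kb in D9 on cast. This crossing was not computed under other scalings. The value of 1538 kb belongs to D1, and the other 5 clones lay between 813 and 923 kb on cast.

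**Figure D4:**
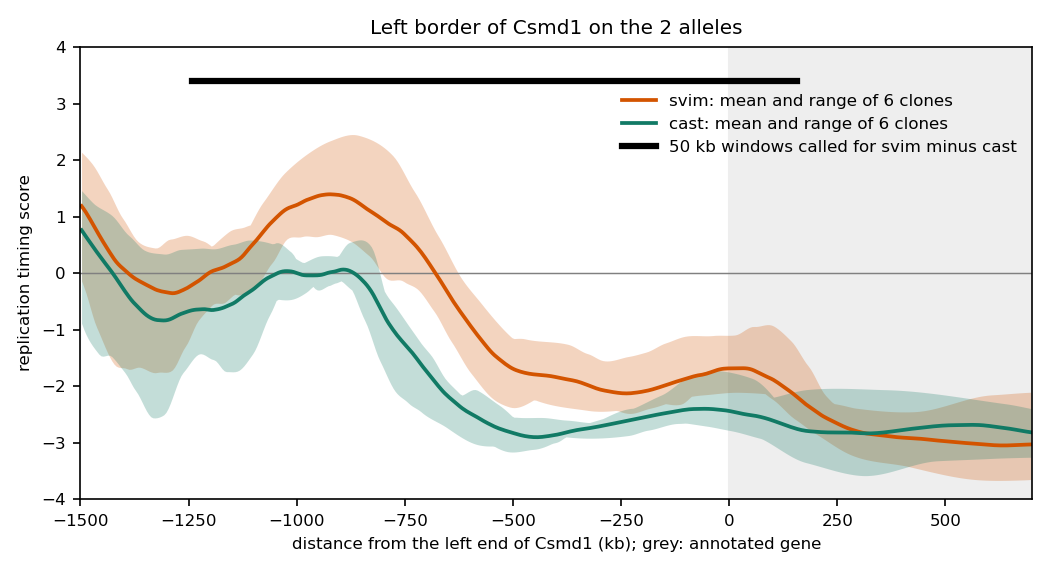
Mean (lines) and range (bands) of the replication timing score over 6 clones, in score units, against the distance from the left end of Csmd1 in kb, for svim and cast. The black bar marks the 28 called windows. Svim lies above cast up to about the first 157 kb of the gene, and the means cross inside Csmd1.

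Further inside Csmd1 no difference was called. In section 4 svim averaged -3.02 and cast -2.71, with svim lower in RexTrim.del and Trim.del clones and slightly higher in both Rex1.del clones, at -2.21 against -2.24 in D1 and -2.64 against -2.71 in E3. In section 6 svim averaged -2.88 and cast -2.95. The gene mean hid the left end: averaged over the whole of Csmd1, svim was -2.93 ± 0.31 and cast -2.93 ± 0.32 (SD, n = 6), with svim minus cast 0.004 ± 0.099 (SE; limma adjusted p 0.999, higher in 3 of 6 clones).

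Dlc1 was crossed by an early-to-late transition. Section 1 averaged 1.95 ± 0.44 and section 10 averaged 0.19 ± 0.67 (SD, n = 12 columns), and the flanking 500 kb averaged 1.77 on the left and -1.78 on the right. Section 10 minus section 1 was negative in all 12 columns, between -3.60 and -0.26. The 66 pairs of columns had a median r of 0.92 along Dlc1, between 0.36 and 1.00, and the alleles of D9 had the lowest r within a clone, 0.67. On the left, Trmt9b, 53 kb away, was early with 2.10 ± 0.34, and on the right AI429214, 40 kb away and with 1 position, scored -0.49 ± 0.67 (SD, n = 12 columns).

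The right end of Dlc1 differed between Rex1.del and the other genotypes. In Rex1.del section 10 scored -0.67 on svim and -1.14 on cast in D1, and -0.43 on svim and -0.33 on cast in E3. In RexTrim.del it scored 0.40 on svim and 0.45 on cast in D3, and 0.47 on svim and 0.69 on cast in D8. In Trim.del it scored 0.58 on svim and 1.12 on cast in D9, and 0.54 on svim and 0.57 on cast in E9. All 4 Rex1.del columns were below 0 and all 8 others above it. With columns centred on their medians all 12 were above 0, at 0.04 to 0.45 in Rex1.del and 0.44 to 1.25 in the 8 others, so the ranges met. Going right, the score first fell below 0 inside Dlc1 in Rex1.del, 43.2 to 98.2 kb before its right end, and 6.82 to 56.8 kb beyond that end in the 8 other columns. Inside or beyond the end depends on the scaling: with centred columns 2 of the 4 Rex1.del columns crossed beyond the end, by 6.82 and 11.8 kb, and with quantile normalized columns svim of D3 and of D8 crossed 3.18 kb inside it. Under all 3 scalings every Rex1.del column crossed further left than the 8 others. In 4 of the 9 windows of 50 kb that touch Dlc1, all 4 Rex1.del columns lay below the 8 others, as in 6.11% of the windows of the chromosome, and in none did they all lie above, as in 12.6%. This split was noticed in these data and is given as a description.

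At the left end of Dlc1 the order was the opposite. Section 1 averaged 2.34 in the 4 Rex1.del columns (2.13 to 2.54) and 1.75 in the 8 others (1.37 to 2.44), with overlap. The fall over the gene was therefore steeper in Rex1.del, with section 10 minus section 1 at -2.99 on average (-3.60 to -2.45), against -1.15 (-1.86 to -0.26) in the 8 others. This measure does not change when a column is shifted as a whole. With columns quantile normalized it was -2.40 (-2.74 to -2.06) in Rex1.del and -1.32 (-1.89 to -0.34) in the 8 others, still without overlap. Taking Rex1.del as E3 alone it was -2.98 on svim and -2.45 on cast. The share of other genes whose fall separates Rex1.del from the 8 other columns was not computed, so the steeper fall is a description of Dlc1 only.

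The limma test of 50 kb windows bears on the same place. No window inside Dlc1 passed for Rex1.del minus Trim.del, where 5.04% of all windows were called on svim and 0.754% on cast. In the last full window of the gene, chr8:36900001-36950000, the difference was -1.09 ± 0.28 on svim (SE; limma adjusted p 0.051) and -1.56 ± 0.37 on cast (0.072). The window that starts at 36950001, most of which lies beyond the gene, was called on svim, with -1.31 ± 0.31 (adjusted p 0.038), but not on cast, with -1.44 ± 0.36 (0.079). AI429214 in that window was lower in Rex1.del than in Trim.del by 1.35 on svim (limma adjusted p 0.016), while on cast Rex1.del minus Trim.del was -1.34 and was not called (0.078). RexTrim.del minus Rex1.del of AI429214 was 1.06 on svim (limma adjusted p 0.031) and 1.15 on cast (0.11). On svim 10.1% of all genes were called for Rex1.del minus Trim.del and 30.1% for RexTrim.del minus Rex1.del. Inside Dlc1, windows of 100 kb in place of 50 kb gave 100 kb in called windows on svim. The share of all windows called at that size is not given, so this is no result about Dlc1 in particular. Both Rex1.del clones lay low here, and D1 was the lower of the pair on each allele.

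Sgcz was late and level. Its sections averaged between -2.43 and -2.08, and the score ranged over 0.84 within the gene on average (0.48 to 1.65 by column). Section 10 minus section 1 was 0.12 on average, between -0.64 and 0.61, so the columns did not share a slope. The 66 pairs of columns had a median r of 0.09, between -0.92 and 0.98, and the alleles of a clone were no more alike, with a median of -0.007. The flanks were late too, at -2.04 on the left and -2.31 on the right, and Tusc3, 344 kb to the right and a gene of the oligosaccharyltransferase complex, scored -2.29 ± 0.47 (SD, n = 12 columns). The score first rose above 0 again between 1468 and 1738 kb right of Sgcz. Right of Sgcz, in Tusc3 and in a window beyond the 500 kb flank, the genotype calls had the sign opposite to those right of Dlc1. On svim the window chr8:39250001-39300000 was called for Rex1.del minus Trim.del, with 1.20 (limma adjusted p 0.043), and for RexTrim.del minus Rex1.del, with -1.26 (0.031). Tusc3 was called on svim in the same contrasts, with 0.89 (limma adjusted p 0.0496) and -0.91 (0.033), and not on cast, with 0.90 (0.10) and -0.86 (0.11). On svim 5.04% and 6.39% of all windows, and 10.1% and 30.1% of all genes, were called in these contrasts. Of the 14 other genes within 1 Mb of the 3 members, 1 was called higher and 1 lower on svim in the first contrast. In the second 3 were called higher and 2 lower.

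The allele means of Sgcz lay furthest apart in section 4. There svim averaged -1.79 and cast -2.36. D8 had the widest gap, with -1.31 on svim and -2.96 on cast, and E9 the opposite sign, with -2.21 on svim and -1.81 on cast. The alleles of D1 were nearly equal, with -2.05 on svim and -2.06 on cast. None of the 23 windows of Sgcz passed for the allele difference, 3 had an unadjusted p under 0.05, and the lowest adjusted p was 0.082, for a difference of 0.60 in the window that starts at 37850001. Without E9, 150 kb of the gene lay in called windows, in a setting where 162 of all 953 genes were called for svim minus cast.

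Over the whole gene, neither Dlc1 nor Sgcz differed detectably between alleles. Dlc1 averaged 1.46 ± 0.38 on svim and 1.30 ± 0.21 on cast (SD, n = 6), with svim minus cast 0.16 ± 0.12 (SE; limma adjusted p 0.51; exact sign-flip p 0.22; higher in 5 of 6 clones). D8 was the exception, with cast higher at every position of Dlc1. Sgcz averaged -2.20 ± 0.23 on svim and -2.34 ± 0.31 on cast (SD, n = 6), with svim minus cast 0.14 ± 0.14 (SE; limma adjusted p 0.67; exact sign-flip p 0.41; higher in 4 of 6 clones). Of all 953 genes, 10.1% were called higher on svim and 7.66% lower, 17.7% in all, and none of the 3 genes. Of the 14 other genes within 1 Mb of them, 5 were called higher on svim and 2 lower, and of the 29 other long genes 5 higher and 3 lower. Left of Dlc1, 2 windows of its flank were called, with svim higher by 0.34 and 0.40, and so was Trmt9b, by 0.40.

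**Figure D5:**
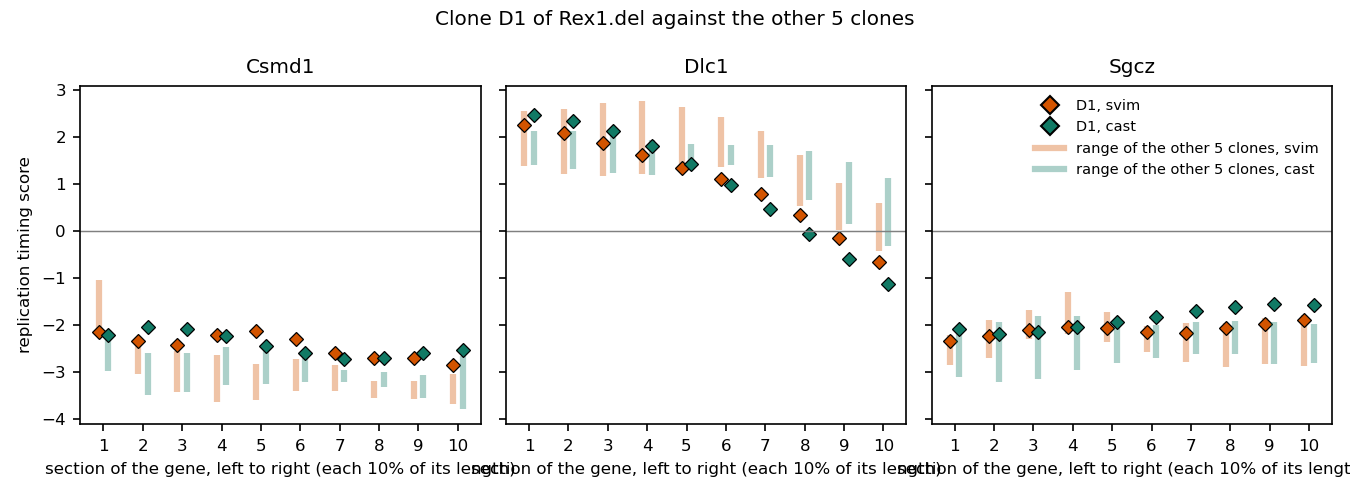
Score of Rex1.del clone D1 (diamonds) and range of the other 5 clones (bars), in score units, in each of the 10 sections of the 3 genes from left to right, for svim (orange) and cast (green). D1 lies above the bars over most of Csmd1 and over the right part of Sgcz on cast, and below the bars over the right part of Dlc1.

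Between genotypes, no gene score passed. On svim and cast, 18 contrasts of the 3 genes were tested with limma over all 953 genes, and 0 of 18 had an adjusted p under 0.05, with 1 of 18 under 0.05 before adjustment. The share of all genes called was 10.1% on svim and 1.57% on cast for Rex1.del minus Trim.del, 30.1% and 0% for RexTrim.del minus Rex1.del, and 0.839% and 0% for RexTrim.del minus Trim.del. With 2 clones against 2, an exact permutation test of a single gene cannot give a p below 0.333. The contrasts share clones, so their values are given side by side.

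The lowest adjusted p was that of Csmd1 for RexTrim.del minus Rex1.del on svim. RexTrim.del averaged -3.19 and Rex1.del -2.60, a difference of -0.59 ± 0.25 (SE; limma adjusted p 0.085). On cast RexTrim.del averaged -3.24 and Rex1.del -2.68, a difference of -0.55 ± 0.29 (0.18). The clones of these genotypes did not overlap on either allele, as for 74.8% of all genes on each allele. Over the 6 combinations of contrast and allele, clones did not overlap in 4 for Csmd1, 3 for Dlc1 and 2 for Sgcz. In the other contrasts 63.5% of genes on svim and 61.8% on cast did not overlap for Rex1.del and Trim.del, and 43.4% and 32.3% for RexTrim.del and Trim.del. The median of all genes moved the same way, by -0.46 on svim and -0.49 on cast. With each column centred on its chromosome 8 median, Csmd1 was called on svim (-1.30, adjusted p 0.0028) and on cast (-1.26, 0.027), and Sgcz on cast (-1.16, 0.038), while the median of all genes was -1.16 on svim and -1.20 on cast. Centred, 711 of the 953 genes were called in this contrast on svim and 607 on cast. Column medians of D1 are the lowest of the 12, and centring lifts D1 by the most. Without D1, the deposited columns gave -0.44 on svim (adjusted p 0.25) and -0.29 on cast (0.60) for Csmd1, with E3 alone in Rex1.del and taken to vary like the clones of the other groups.

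None of the other genotype differences passed. For Rex1.del minus Trim.del, Csmd1 differed by 0.39 ± 0.25 on svim and 0.19 ± 0.29 on cast, Dlc1 by -0.57 ± 0.28 and -0.32 ± 0.28, and Sgcz by 0.19 ± 0.27 and 0.06 ± 0.30 (SE; limma adjusted p 0.19 to 0.88). The median of all genes shifted by 0.28 on svim and 0.36 on cast in that contrast. With columns centred on their medians the difference of Dlc1 was -0.098 on svim and 0.26 on cast. For RexTrim.del minus Trim.del, Csmd1 differed by -0.21 ± 0.25 on svim and Dlc1 by -0.54 ± 0.28 (adjusted p 0.89 and 0.74), and the median of all genes by -0.14. Sgcz differed by 0.08 ± 0.27 on svim and -0.40 ± 0.30 on cast in that contrast, and by -0.10 ± 0.27 and -0.46 ± 0.30 for RexTrim.del minus Rex1.del (SE). Dlc1 differed by 0.03 ± 0.28 on svim and 0.15 ± 0.28 on cast for RexTrim.del minus Rex1.del (SE). With both alleles averaged per clone, none of 9 contrasts passed (limma adjusted p 0.071 to 0.85), where 5.88% of all genes were called for Rex1.del minus Trim.del, 31.9% for RexTrim.del minus Rex1.del and 0.315% for RexTrim.del minus Trim.del. Whether a genotype difference was unlike on the alleles was tested for all 9 pairs of a gene and a contrast, and none passed (limma adjusted p 0.88 to 0.99; 0.63%, 0% and 0.839% of all genes passed in the same order of contrasts). The 50 kb windows of the 3 genes gave 0 calls for RexTrim.del minus Rex1.del, where 6.39% of all windows were called on svim and 0% on cast, and 0 calls for RexTrim.del minus Trim.del, where 0.754% and 0% were.

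Clone D1 of Rex1.del was named as standing apart with results of these data known, so its distance is described and not tested. Its columns have chromosome 8 medians of -1.12 on svim and -1.24 on cast, against -0.58 to 0.03 in the 10 other columns. Along the whole chromosome its profile correlated with the other 5 clones at a median r of 0.93 on svim and 0.93 on cast, against 0.96 and 0.95 among pairs of the other 5. D1 was the highest of the 6 clones for 40.9% of all genes on svim and 43.1% on cast, and the lowest for 17.5% and 17.7%. Among the 32 genes of at least 300 kb it was the highest for 3.1% and 21.9%, and the lowest for 40.6% and 37.5%.

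Csmd1 was less late in D1 than in the other clones. D1 exceeded the mean of the other 5 by 0.58 on svim, where they lay between -3.32 and -2.75, and by 0.61 on cast, where they lay between -3.36 and -2.78. Over all genes D1 also exceeded the other 5, by a median of 0.29 on svim and 0.38 on cast. Among genes with a mean under -2 in the other 5 clones these medians were 0.24 and 0.36. D1 was the highest clone in 8 of the 10 sections on svim and in 9 of 10 on cast. On svim the excess was widest in section 5, where D1 scored -2.13 and the others -3.19 ± 0.30 (SD, n = 5). In section 1 on svim D1 lay on the other side, at -2.15 against -1.81 ± 0.45. Section 10 minus section 1 was -0.70 on svim and -0.30 on cast in D1, against -2.43 to -1.13 on svim and -1.29 to 0.007 on cast in the others. Among genes with a mean under -2 in the other 5 clones, D1 was the highest for 12.3% on svim and 27.9% on cast. D1 was also the highest clone for the gene score of Csmd1 on both alleles with columns centred or quantile normalized. Centred, it was so for 79.3% of all genes on svim and 82.3% on cast, and quantile normalized for 33.9% and 31.4%. E3, the other Rex1.del clone, was the second highest by score on svim and stood among the others on cast. Ranked within its own columns, Csmd1 was latest in E3, with 0.94% of genes below it on svim and 0.73% on cast.

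In the columns as deposited, Dlc1 was later in D1 at its right end and not at its left. The gene score of D1 minus the mean of the other 5 clones was -0.49 on svim and -0.39 on cast. D1 was the lowest clone by that score, as for 40.6% of the genes of at least 300 kb on svim and 37.5% on cast. In section 10 D1 minus the mean of the others was -0.98 on svim and -1.64 on cast. In section 1 it was 0.16 on svim and 0.82 on cast. D1 was the lowest clone in 5 of the 10 sections on each allele, all of them in the right part of the gene. With quantile normalized columns the gene scores of D1 and of the others differed by -0.035 on svim and -0.018 on cast, and with columns centred on their medians D1 was higher by 0.37 on svim and 0.53 on cast. The sign of the gene score difference thus follows the scaling, while D1 and E3 had the steepest falls along the gene on each allele under all 3 scalings.

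Sgcz in D1 differed on cast more than on svim. On cast D1 scored 0.55 above the mean of the other 5 clones, which lay between -2.82 and -2.21, and on svim 0.11 above it, inside their range of -2.62 to -1.97 as deposited. Over all genes as deposited the median of this difference was 0.38 on cast and 0.29 on svim. D1 was the highest clone for 43.1% of all genes on cast. With columns centred or quantile normalized D1 was the highest clone on svim too, by 0.96 and 0.26 above the mean of the others. Over all genes that excess on svim had a median of 1.14 centred and 0.14 quantile normalized. D1 was the highest clone for 79.3% and 33.9% of all genes in these settings. On cast D1 was the highest clone in 7 of 10 sections, with the widest gap of 0.95 in section 10, and on svim in 0 of 10. Whether the excess differs between alleles was not tested.

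Clones of 1 genotype also differed from each other. D1 minus E3 was 0.31 on svim and 0.52 on cast for Csmd1, -0.42 and -0.32 for Dlc1, and -0.02 and 0.57 for Sgcz. D3 minus D8 lay between -0.23 and 0.39 over the 3 genes and both alleles. D9 minus E9 lay between 0.03 and 0.65, highest for Sgcz on svim. The median size of such a difference over all genes was 0.23 to 0.36.

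Among genes over 1 Mb from the 3 members, those whose score varied most like theirs over the 12 columns were named. For Csmd1 these were Ogfod1 (r = 0.94), Bbs2 (0.93), a gene of the ciliary BBSome, and Cog8 (0.92), a gene of the Golgi COG complex, all of them early with mean scores of 2.60 to 2.79. Without the columns of D1 these r were 0.81 to 0.86. For Dlc1 they were Foxl1 (0.82) and Foxf1 (0.81), forkhead factor genes, and Mthfsd (0.81), which neighbour each other. For Sgcz they were Atp2c2 (0.89), Wfdc1 (0.83) and Meak7 (0.82), again neighbours. Columns share clones and were scaled as wholes, 936 genes were searched for each member, and these values are descriptions only.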

How the data were processed

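Each value is a score of replication timing at a 5 kb position, as deposited. The authors made it from the early and late S-phase reads of a clone, aligned to mm10; Bowtie2, SAMtools and bedtools are named per the submitters' processing notes. The name of the deposited table points to a scaling by interquartile range; the sources used here give neither smoothing nor log base, and read depth is unknown. Gene scores are means over the positions inside the GRCm38 gene, and 50 kb windows needed 50% of their positions.

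Alleles were compared within clones and genotypes between clones with limma 3.58.1 (R 4.3.3, lmFit and eBayes, two-sided, Benjamini-Hochberg over 953 genes or 2521 windows, threshold 0.05), with an exact sign-flip test over 6 clones beside the allele difference. The fits were tested on simulated data. Genes, lists and comparisons were chosen with earlier results of these data known. Named genes are the 3 members, their nearest neighbours, the 3 latest and 3 earliest other long genes, and for each member the 3 most alike genes over 1 Mb away; a further list of early genes is not reported here. Arhgef10, Kbtbd11 and Cln8 were named after their values were seen. Alternatives were other scalings, gene medians, position and gene filters, window sizes, averaged alleles and leaving out each clone. The chromosome 16 table was not used.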

Additional observations from a re-analysis of the deposited data

Results flagged for a closer look

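In section 1, the leftmost of 10 equal sections, of Csmd1 on svim, clone D9 of Trim.del scored -1.05 and stood apart from the other 5 clones, which lay between -2.15 and -1.82 (Dixon's ratio 0.703, above Dixon's 95% critical value for 6 values). In section 1 of Sgcz on svim, clone E9 of Trim.del scored -2.85 and stood apart from the other 5, which lay between -2.36 and -2.23 (ratio 0.788). Chance flags about 1 in 20 such groups.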

How the results depend on the processing

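No paired analysis was possible because the chromosome 8 clones carry no replicate number that groups share; alleles were already compared within a clone. Centring each column on its chromosome 8 median made 1 of the 3 genes on svim and 2 on cast called for RexTrim.del minus Rex1.del. Of all 953 genes, 711 were called on svim and 607 on cast in that setting. Called windows then held 1550 kb of Csmd1, 200 kb of Dlc1 and 500 kb of Sgcz on svim, and 1000, 150 and 450 kb on cast. As deposited, none of the 3 genes and no window in them was called. The share of all windows called when centred is not given. For Rex1.del minus Trim.del centring gave 450 kb of Csmd1 on svim and 150 kb on cast, where 318 and 212 of the 953 genes were called. Centred, D1 minus the other 5 clones was 1.44 on svim and 1.53 on cast for Csmd1, 0.37 and 0.53 for Dlc1, and 0.96 and 1.46 for Sgcz, and quantile normalized it was -0.035 and -0.018 for Dlc1. Centring adds the distance between column medians, which is largest for D1. Over all genes the median of D1 minus the other 5 clones was 1.14 on svim and 1.30 on cast when centred. For Rex1.del minus Trim.del on svim, windows of 25 kb gave 25 kb of Dlc1 and windows of 100 kb gave 100 kb, against 0. Leaving out each clone in turn gave 0 to 50 kb on svim and 0 to 100 kb on cast there. For RexTrim.del minus Rex1.del it gave 0 to 250 kb of Csmd1 on svim and 0 to 50 kb of Dlc1 on either allele. All of these upper values came without E3, with D1 alone in Rex1.del. For svim minus cast it gave 0 to 150 kb of Sgcz, with the 150 kb reached without E9. The share of all windows called at other window sizes or without a clone is not given, so these lengths have no background beside them.

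The tested differences that changed sign were called under neither setting. Svim minus cast of Csmd1 was -0.074 centred, -0.052 with medians over positions and -0.034 to 0.034 leaving out each clone. Rex1.del minus Trim.del was -0.053 quantile normalized and -0.072 to 0.45 leaving out each clone for Csmd1 on cast, 0.26 centred for Dlc1 on cast, -0.059 with medians and -0.22 to 0.35 leaving out each clone for Sgcz on cast, and -0.14 to 0.51 leaving out each clone for Sgcz on svim. RexTrim.del minus Trim.del of Sgcz on svim was -0.15 centred, -0.16 with alleles averaged and -0.24 to 0.41 leaving out each clone. RexTrim.del minus Rex1.del of Dlc1 was -0.67 centred, -0.28 quantile normalized, -0.14 with medians and -0.18 to 0.24 leaving out each clone on svim, and -0.55, -0.039, -0.019 and -0.0080 to 0.32 on cast. That of Sgcz on svim was 0.013 quantile normalized. The steeper fall of Dlc1 in Rex1.del than in the other 8 columns, an alternative set chosen after seeing the data, was -1.84 as deposited and centred, -1.08 quantile normalized and -2.11 to -1.57 leaving out each clone. Fewer than 3 clones a genotype and an unknown read depth limit all genotype values.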
